A study of Mus musculus with 18 samples.

Results

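The cytokine response of Slc30a8 knockout islets was compared with that of wild-type islets as a difference of differences: the log2 change from untreated to cytokine-treated knockout (KO) islets minus the same change in wild-type (WT) islets. This response difference uses 12 of the 18 samples of the series, 3 in each of 4 groups: untreated WT, cytokine-treated WT, untreated KO and cytokine-treated KO. The other 6 samples, from heterozygous (Het) islets, served to estimate the spread and to choose genes independently of WT and KO. All islets came from 17-week-old male mice of the strain NOD.CB17-Prkdcscid/NCrCrl, so every group, controls included, carries the Prkdc scid mutation on a NOD background. KO mice are labelled ZNT8 -/- and WT mice ZNT8 +/+, and which part of the gene was deleted is not stated in the sources used here. After overnight culture in RPMI1640, islets stayed for 24 h in medium alone or in medium with 3 cytokines: TNF-α at 100 pg/ml, IL-1β at 150 pg/ml and IFN-γ at 10 pg/ml. Whether each library is a different mouse is not stated in the labels, and the p-values describe only the spread among these samples, which may be technical.

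Slc30a8 encodes ZnT8, the transporter that moves zinc into the insulin granules of beta cells. TNF-α and IL-1β act on islet cells mainly through NF-kB, which switches on chemokines, acute phase proteins, inhibitors of apoptosis and the inducible nitric oxide synthase, while IFN-γ induces guanylate-binding proteins, the immunoproteasome and antigen presentation. Beta cells exposed to these cytokines lose part of their identity programme, and animals with the scid mutation lack mature T and B lymphocytes. A larger response in KO islets can be made in more than one way: a lower untreated level, a higher induced level, or both. For this reason many genes below are given with levels or KO minus WT differences without and with cytokines. The difference with cytokines minus the untreated one is the response difference. For some genes only the response difference is given, which does not tell these ways apart. Levels are given in CPM, the reads of a gene scaled to the size of its library. Comparisons are log2 fold changes with their SE, tested by quasi-likelihood in edgeR, and p-values are adjusted by Benjamini-Hochberg over 17590 genes. A gene is said to have passed the test, risen or fallen only at an adjusted p under 0.05.

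Slc30a8 itself (ENSMUSG00000022315, GRCm38 chr15:52295553-52335798, plus strand) served as a check of the genotype labels. Its level was 98.8, 123 and 125 CPM in untreated WT and 47.9, 55.9 and 44.0 CPM in untreated KO islets. After treatment it was 34.5, 43.7 and 46.4 CPM in WT and 20.8, 23.2 and 20.0 CPM in KO islets. Every KO library was below every WT library of the same treatment, and reads remained in all KO libraries. The KO level was lower by a log2 difference of -1.23 untreated (adjusted p = 0.00269) and -0.96 with cytokines (adjusted p = 0.0104). Slc30a8 fell by 1.48 in WT and fell by 1.21 in KO with cytokines, and the response difference was 0.27 ± 0.26 (adjusted p = 0.914).

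Library depth ran from 22990164 to 29651472 reads assigned to genes over the 12 libraries. Beta cell markers summed to between 144000 and 192000 CPM in WT libraries and between 161000 and 233000 CPM in KO libraries, so the islet label holds in each. Acinar cell markers, from the exocrine tissue around islets, summed to between 7560 and 13400 CPM in WT libraries and between 1020 and 3080 CPM in KO libraries, with no overlap between genotypes in either treatment. In such bulk samples fewer cells of a type and less RNA per cell cannot be told apart. A pair of untreated libraries stood apart from their groups. The first untreated WT library had the highest level of its group in 373 of 566 genes (65.9%) that rose at least 2-fold with cytokines in Het islets. The third untreated KO library was highest in 265 of them (46.8%), and it also held 497 reads of the T cell marker Cd4, against 18 and 29 in the other untreated KO libraries. Its mesenchymal markers summed to 3590 CPM against 1600 and 1460, and its macrophage markers to 420 CPM against 158 and 171. Some results that rest on either library are also given without it, while for others only the value from all libraries is given. Leaving out both together was chosen after seeing the data.

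**Figure D1:**
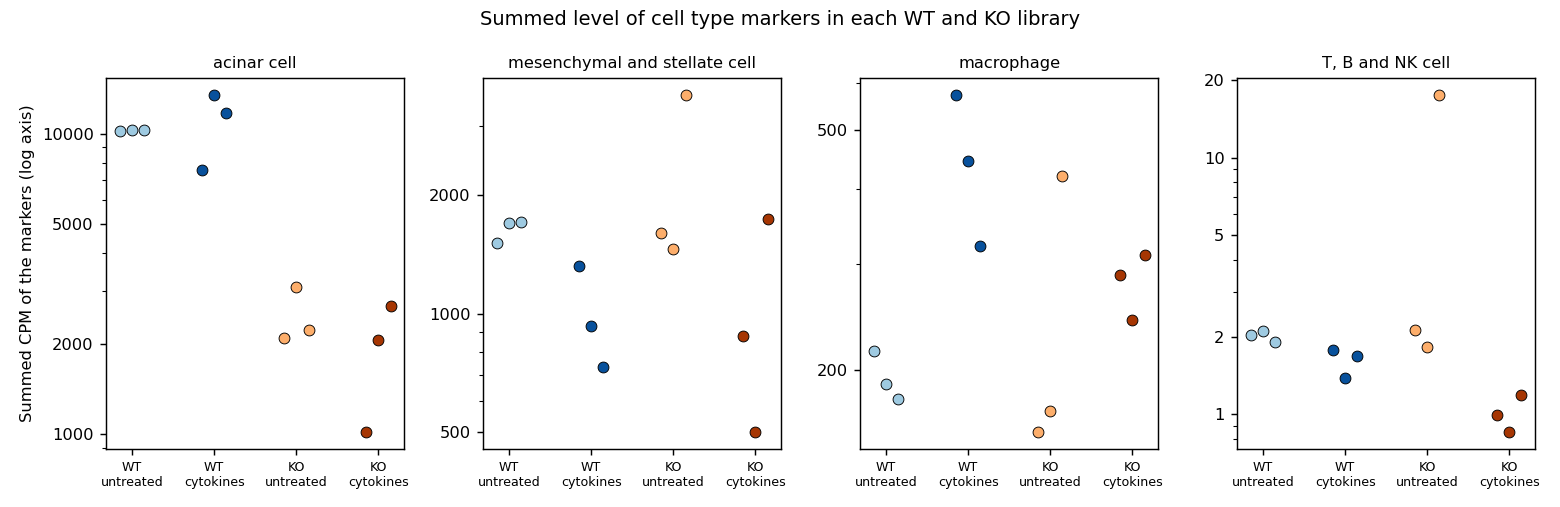
Summed CPM (log axis) of the marker genes of 4 cell types in each of the 12 libraries, 1 point per library, 3 libraries per group. Acinar marker sums were lower in every KO than in every WT library, and the third untreated KO library was the highest of its group for mesenchymal, macrophage and T, B and NK cell markers.

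Across all genes the responses of the genotypes were close in number. Cytokines raised 2220 genes (12.6% of those tested) and lowered 2310 (13.1%) in WT islets, and raised 2702 (15.4%) and lowered 2840 (16.1%) in KO islets. The response difference passed the test for 1 gene in each direction (0.00569% of genes each): Slc6a14 was higher and the pseudogene Gm19680 lower. At an unadjusted p under 0.05 there were 700 genes higher (3.98%) and 500 lower (2.84%), and the median over all genes was -0.00678. The numbers depended on the tool, since DESeq2 called 46 genes higher and 8 lower, and Slc6a14 was the only gene that both tools called. More genes were called between genotypes at a given treatment than in their response. The response difference combines 4 group means and has a larger SE, for Rgs17 0.123 against 0.0871 untreated and 0.0863 treated. Fewer calls thus do not show that responses differ less than levels. Without cytokines 99 genes (0.563%) were higher and 436 (2.48%) lower in KO, and with cytokines 261 (1.48%) were higher and 678 (3.85%) lower. Of the genes lower in KO, 230 were lower under both conditions, which is 52.8% of the untreated and 33.9% of the cytokine-treated calls. Of those higher in KO, 18 were shared (18.2% and 6.9%), and no gene was called in opposite directions. The shares of all genes in this paragraph are the background for the counts of lists given further on.

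The 700 genes with an unadjusted p under 0.05 and a higher response difference were split by the condition that carried it. In 376 of them (53.7%) the untreated difference was the larger. The untreated difference alone passed the test, with KO lower, in 118, and the cytokine-treated difference alone, with KO higher, in 88, while 4 were lower in KO under both conditions. Of these 700 genes, 306 rose with cytokines in both genotypes, 186 rose in KO and did not pass in WT, and 73 fell in WT and did not pass in KO. Among the 500 genes with a lower response difference the untreated difference was the larger in 213 (42.6%). There the untreated difference alone passed in 29, with KO higher, and the cytokine-treated one alone in 107, with KO lower, while 6 were lower in KO under both conditions. Of the 500, 86 fell in both genotypes, 195 fell in KO and did not pass in WT, and 58 rose in WT and did not pass in KO. Since passing in 1 genotype only depends on the threshold, these counts describe the genes and are no test of a difference.

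Slc6a14 (ENSMUSG00000031089, chrX:21714896-21742355, plus strand), a transporter of neutral and cationic amino acids, had the largest response difference of the genes that passed. Untreated WT libraries held 1.56, 0.794 and 0.513 CPM and untreated KO libraries 0, 0.0812 and 0.0328 CPM. With cytokines the levels were 28.8, 30.2 and 31.5 CPM in WT and 40.2, 44.1 and 44.3 CPM in KO. Groups did not overlap under either condition: KO was lower without and higher with cytokines. The response difference was 5.05 ± 0.70 (adjusted p = 0.0231), made of an untreated difference of -4.55 ± 0.67 (adjusted p = 0.00264) and a cytokine-treated difference of 0.50 ± 0.20 (adjusted p = 0.131). The untreated level rests on few reads, 79 in the WT and 3 in the KO libraries in all. By reads, the untreated level was 26.4 times as high in WT as in KO (95% interval 8.71 to 131), and the induced level 1.41 times as high in KO as in WT (1.34 to 1.49). Cytokines raised it 31.1-fold (24.9 to 39.4) in WT and 1160-fold (397 to 5630) in KO by reads, and these intervals cover counting error only. The call was kept in 8 of 24 alternative analyses, with adjusted p from 3.41e-05 to 0.219 and a positive value in each. Leaving out 1 library at a time, it passed only without the third untreated WT or treated KO libraries 1 or 3; without the first untreated WT library the value was 4.50 (adjusted p = 0.0993), and without the third untreated KO library 4.99 (adjusted p = 0.135). On the scale of reads added by cytokines the genotypes differed less, at 29.2 CPM in WT and 42.8 CPM in KO.

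Promoters are shown for 3 of the genes with a larger untreated than treated difference: Slc6a14, and Steap4 and Birc3, which are described with their groups further on. The promoters of Hamp and Sod2 were searched too, held neither motif and are not printed. Each is the 250 bases before the start of the gene from RefSeq (GRCm38.p6), printed in the direction of the gene, with capitals marking matches to the NF-kB motif (GGGA, any 4 bases, then CC) or the C/EBP motif (TTGC, any 2 bases, then AA) on either strand. In 32851 mouse promoters of this length the first occurs in 17.6% and the second in 9.56%. Slc6a14 (chrX:21714650-21714899, plus strand) holds neither set of letters. Steap4 (chr5:7960222-7960471, plus strand) holds 2 NF-kB matches, whose first base lies 250 and 73 bases before the start, and 1 C/EBP match at 87 bases. Birc3 (chr9:7873171-7873420, minus strand) holds 1 NF-kB match at 57 bases. No match overlaps another, and a match in these windows is a description of letters.
Slc6a14: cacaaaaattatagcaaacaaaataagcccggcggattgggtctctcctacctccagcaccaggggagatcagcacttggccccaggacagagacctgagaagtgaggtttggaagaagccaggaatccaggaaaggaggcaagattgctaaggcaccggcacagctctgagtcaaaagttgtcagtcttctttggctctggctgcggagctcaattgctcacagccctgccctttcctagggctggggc
Steap4: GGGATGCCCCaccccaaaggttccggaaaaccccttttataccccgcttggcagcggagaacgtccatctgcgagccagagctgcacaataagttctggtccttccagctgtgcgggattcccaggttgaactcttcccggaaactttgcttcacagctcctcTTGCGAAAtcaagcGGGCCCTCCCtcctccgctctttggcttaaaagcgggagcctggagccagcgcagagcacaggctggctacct
Birc3: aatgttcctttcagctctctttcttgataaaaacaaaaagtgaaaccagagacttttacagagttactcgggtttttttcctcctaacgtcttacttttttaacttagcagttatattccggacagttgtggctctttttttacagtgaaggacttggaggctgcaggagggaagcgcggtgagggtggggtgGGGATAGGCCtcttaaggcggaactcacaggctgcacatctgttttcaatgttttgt

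Gm19680 (ENSMUSG00000070960, chr1:31615149-31616661, plus strand) is annotated as a processed pseudogene, so its reads may belong in part to a similar gene. Its levels were 0.97, 0.993 and 1.21 CPM in untreated WT and 1.21, 0.812 and 0.951 CPM in untreated KO islets. After treatment they were 1.78, 2.09 and 2.39 CPM in WT and 0.353, 0.404 and 0.346 CPM in KO. Untreated groups overlapped, while every cytokine-treated KO library was below every other library. The pseudogene rose by 0.98 ± 0.21 in WT (adjusted p = 0.00271) and fell by 1.43 ± 0.25 in KO (adjusted p = 4e-04). The response difference of -2.40 ± 0.33 (adjusted p = 0.0231) lay in the induced level, where KO was lower by a log2 difference of -2.50 ± 0.24 (adjusted p = 0.000217), and the untreated difference was -0.09 ± 0.22 (adjusted p = 0.874). These values rest on 9 to 61 reads per library. Gm19680 passed in 7 of 23 alternative analyses, with adjusted p from 0.0147 to 0.219. Of the analyses that left out 1 library, it passed only without the third untreated WT or the second untreated KO library, and the value ran from -2.52 to -2.24.

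**Figure D2:**
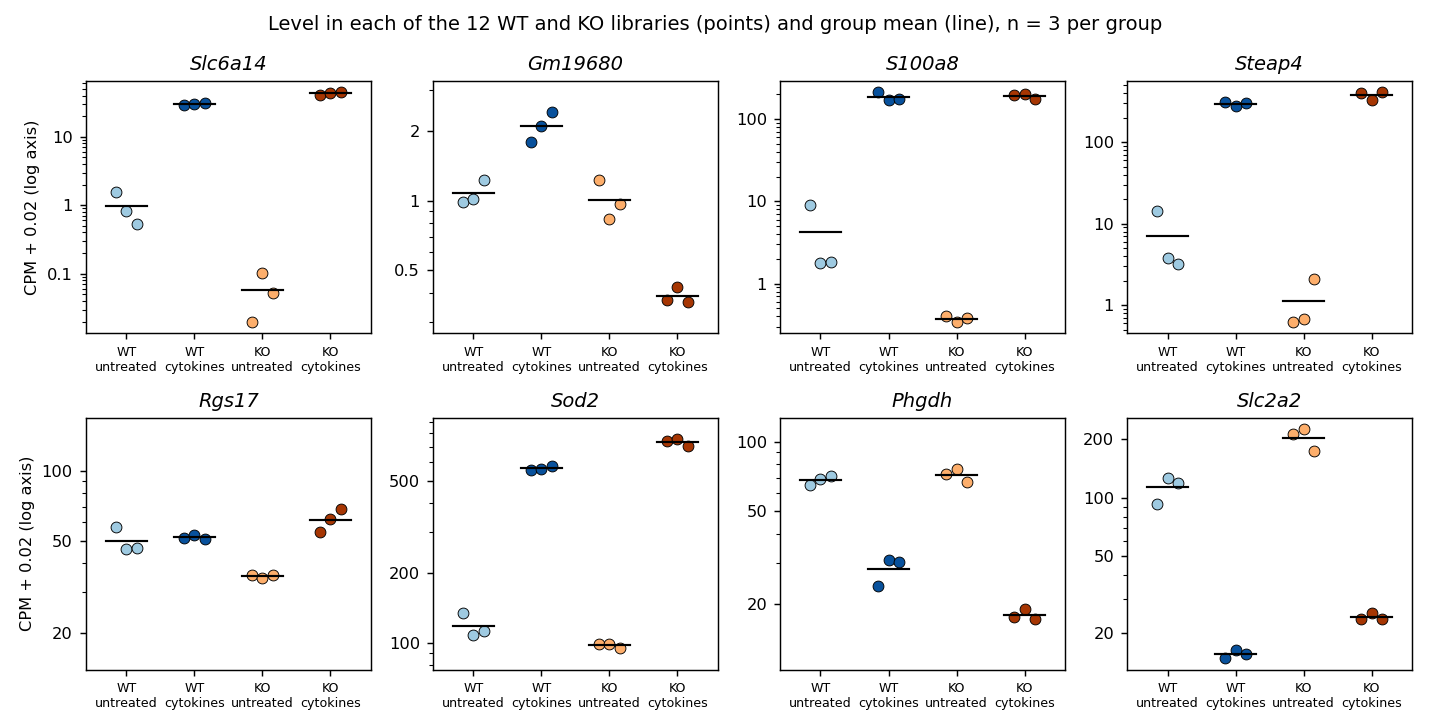
CPM plus 0.02 on a log axis for 8 genes in each of the 12 libraries (points, 3 per group) with the group mean as a line. Slc6a14, S100a8, Steap4 and Rgs17 had their lowest levels in untreated KO islets, Sod2 its highest and Phgdh and Gm19680 their lowest in cytokine-treated KO islets, and Slc2a2 was higher in KO than in WT under both conditions.

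The 10 genes with the smallest p and a higher response difference, at a mean of at least 1 CPM and with Slc6a14 first, fell into 3 kinds. In Slc6a14, Rgs17, Sh3yl1 and Cgn only the untreated difference passed the test. Rgs17, a regulator of G protein signalling, stood at 57.1, 45.8 and 46.3 CPM in untreated WT, 35.5, 34.3 and 35.6 in untreated KO, 51.5, 52.7 and 50.8 in treated WT and 54.5, 61.8 and 68.4 in treated KO islets. Untreated KO libraries were thus the lowest, and treated KO libraries lay above treated WT ones. Rgs17 rose by 0.81 in KO (adjusted p = 3.88e-06) and differed by 0.05 in WT (adjusted p = 0.698). Its response difference was 0.76 ± 0.12 (adjusted p = 0.0755) and its untreated difference -0.50 (adjusted p = 0.00636). Cgn, which encodes the tight junction protein cingulin, ran from 92.2 to 97.5 CPM in untreated WT and from 60.7 to 66.3 CPM in untreated KO islets, without overlap. Its treated levels, between 195 and 225 CPM in WT and between 207 and 226 CPM in KO, overlapped, and its response difference was 0.61 ± 0.12 (adjusted p = 0.156). Sh3yl1, a lipid-binding SH3 protein, was at 20.4 to 22.7 CPM in untreated WT against 15.2 to 15.9 CPM in untreated KO islets, with a response difference of 0.54 ± 0.09 (adjusted p = 0.127).

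In Sod2, Hcar2, Hpgds and Fbp2 only the cytokine-treated difference passed, with KO higher. Sod2, the mitochondrial manganese superoxide dismutase and a classical NF-kB target, stood at 134, 108 and 112 CPM in untreated WT and 98.9, 98.2 and 94.4 CPM in untreated KO islets. After treatment it reached 553, 560 and 581 CPM in WT and 739, 755 and 706 CPM in KO. Every treated KO library was above every treated WT library, and cytokines added 446 CPM in WT and 636 CPM in KO. Its response difference was 0.66 ± 0.13 (adjusted p = 0.156), with a treated difference of 0.38 (adjusted p = 0.0254) and an untreated one of -0.28 (adjusted p = 0.107). Hcar2, a receptor for ketone bodies and niacin, rose from 6.87 to 7.34 CPM untreated to 12.5 to 15.8 CPM in WT, and from 5.11 to 5.88 to 17.9 to 20.8 CPM in KO. Its untreated difference was -0.35 (adjusted p = 0.0749) and its treated one 0.44 (adjusted p = 0.0167). Hpgds, a prostaglandin D synthase, had a response difference of 0.93 ± 0.17 (adjusted p = 0.156). Its treated difference was 0.48 (adjusted p = 0.0336) and its untreated one -0.46 (adjusted p = 0.0594). For both genes every untreated KO library was below every untreated WT library, so which difference passed depends on the threshold. Fbp2, a fructose bisphosphatase of gluconeogenesis, moved in opposite directions: it fell by 0.45 in WT (adjusted p = 0.0375) and rose by 0.66 in KO (adjusted p = 0.00299), for a response difference of 1.11 ± 0.21 (adjusted p = 0.156).

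Crct1 and Hamp were lower in KO under both conditions, and less so with cytokines. Hamp, which encodes the iron-regulating hormone hepcidin, was at 8.1, 3.22 and 3.45 CPM in untreated WT and 0.607, 0.203 and 0.393 CPM in untreated KO islets. Treated levels were 93.7, 100 and 106 CPM in WT and 52.9, 46.3 and 50.9 CPM in KO. KO libraries were below WT libraries throughout, and the log2 response difference of 2.60 ± 0.51 (adjusted p = 0.156) was positive although cytokines added fewer CPM in KO (49.6) than in WT (95.0). Of the 10 genes, Hamp was the exception here: the other 9 gained more CPM in KO, or gained in KO where WT lost. Crct1 ran from 2.68 to 3.91 CPM in untreated WT and from 0.493 to 0.59 CPM in untreated KO islets, with treated levels of 4.63 to 6.13 and 3.03 to 3.27 CPM. Its response difference was 1.67 ± 0.26 (adjusted p = 0.0658), the third smallest adjusted p of all genes tested.

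Among the 10 genes with the smallest p and a lower response difference, only the treated difference passed in 8, with KO lower. These were Shmt2, Phgdh, Paox, Sept11, Grb10, Casp9, Slc7a1 and Cyp39a1. Which difference passed depends on the threshold. In Shmt2 every untreated KO library was above every untreated WT library (difference 0.16, adjusted p = 0.115). In Paox every untreated KO library was below every untreated WT library (difference -0.38, adjusted p = 0.0981). Shmt2 and Phgdh are enzymes of serine and mitochondrial folate metabolism. Phgdh stood at 64.9, 69 and 71.1 CPM in untreated WT and 72.4, 76.3 and 67.2 CPM in untreated KO islets, and at 23.9, 30.7 and 30.3 CPM in treated WT and 17.4, 19 and 17.2 CPM in treated KO islets. Untreated groups overlapped and treated groups did not. Phgdh fell by 1.27 in WT and fell by 2.01 in KO, a response difference of -0.74 ± 0.15 (adjusted p = 0.165), with a treated difference of -0.66 (adjusted p = 0.00336). Shmt2 went from 104 to 116 CPM untreated to 52.1 to 58.7 CPM treated in WT, and from 120 to 130 to 47.4 to 48.4 CPM in KO. Its KO libraries were thus above WT without cytokines and below WT with them, and its response difference was -0.38 ± 0.08 (adjusted p = 0.156).

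Slc7a1, a carrier of arginine and other cationic amino acids, fell by 0.58 in WT and fell by 0.95 in KO, and its treated KO level was lower by a log2 difference of -0.29 (adjusted p = 0.0138). Grb10, an adaptor that restrains insulin receptor signalling, was at 48.1 to 53.1 CPM in treated WT and 33.7 to 40.6 CPM in treated KO islets, while untreated levels of 74.4 to 83.6 and 75.7 to 79.1 CPM overlapped. Paox, an oxidase of polyamine breakdown, stood at 11.2 to 13.1 CPM in treated WT and 5.29 to 5.87 CPM in treated KO islets. It fell in KO by -0.59 (adjusted p = 0.0017) and differed by 0.16 in WT (adjusted p = 0.347). Casp9, the initiator caspase of the mitochondrial death pathway, was at 14.5 to 16 CPM in treated WT and 11.2 to 12.2 CPM in treated KO islets, against 14 to 14.6 and 14.1 to 14.9 CPM untreated. Sept11, a cytoskeletal GTPase, and Cyp39a1, an oxysterol hydroxylase, had treated differences of -0.28 and -0.92 (adjusted p = 0.0045 and 0.00123). In the other 2, Rassf2 and Sec16b, only the untreated difference passed, with KO higher by 0.51 and 0.41 (adjusted p = 0.00852 and 0.0368). All 10 lost more CPM with cytokines in KO, or lost in KO where WT gained. None of the 10 had an adjusted p under 0.05 for the response difference by edgeR; the 8 genes that DESeq2 called lower were among them.

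Genes of acute phase proteins and neutrophil-associated products had the largest median response difference of the 21 process lists. Lists and members were chosen with earlier results of these data known, so this rank and the values below are a description and no test. Of 30 listed genes 28 were tested, and their median response difference was 1.75, against -0.00678 over all genes. It was above 0 in 22 (48.5% of all genes). At an unadjusted p under 0.05 it was higher in 17 and lower in 1 (3.98% and 2.84% of all genes). None passed after adjustment. The median difference was -1.76 without and 0.032 with cytokines: untreated KO islets had a median of 29.4% of the WT level, and treated KO islets 102%. Without cytokines 10 of the 28 were lower in KO (2.48% of all genes) and none higher (0.563%). With cytokines 2 were lower (3.85% of all genes) and 1 higher (1.48%). All 3 KO libraries were below all 3 WT libraries in 15 genes without cytokines (14.7% of all genes) and above them in none (11% of all genes). With cytokines these counts were 3 below (16% of all genes) and 3 above (14.5% of all genes). Cytokines raised 27 of the 28 in WT and 25 in KO (12.6% and 15.4% of all genes). Saa1 and Saa2 had no reads in at least 1 group; with such groups set to a floor of 3 reads, which left 1 of these genes without a fold, the medians were 1.57, -1.47 and 0.032.

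S100a8, a calcium-binding alarmin, stood at 9.11, 1.75 and 1.8 CPM in untreated WT and 0.379, 0.325 and 0.361 CPM in untreated KO islets. After treatment it reached 211, 172 and 177 CPM in WT and 197, 200 and 177 CPM in KO. The first untreated WT library was the highest of its group, untreated genotypes did not overlap and treated ones did. Its response difference was 3.62 ± 0.93 (adjusted p = 0.323), with an untreated difference of -3.58 (adjusted p = 0.031). Steap4, a metalloreductase induced by inflammation, had untreated levels of 14.4, 3.73 and 3.15 CPM in WT and 0.607, 0.649 and 2.07 CPM in KO islets. Treated levels were 310, 279 and 304 CPM in WT and 403, 333 and 408 CPM in KO, above WT in every library. Its untreated difference was -2.63 (adjusted p = 0.0307), its treated difference 0.36 (adjusted p = 0.607) and its response difference 2.99 ± 0.72 (adjusted p = 0.289). In both genes a library that stands apart is the highest of its group: the first untreated WT library in both, and the third untreated KO library in Steap4. Without the first untreated WT library the response differences were 2.36 for S100a8 and 1.95 for Steap4, and without the third untreated KO library 3.65 and 3.88.

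Lcn2, a siderophore-binding lipocalin and the most abundant of those named here, went from 262 to 559 CPM to 5320 to 5700 CPM in WT, and from 93.1 to 115 CPM to 5140 to 5470 CPM in KO. The untreated difference was -1.80 (adjusted p = 0.0165), and the CPM added were 5163 in WT and 5189 in KO. Cfb, complement factor B, stood at 5.06, 2.11 and 3.45 CPM in untreated WT and 0.986, 0.73 and 1.48 CPM in untreated KO islets, with overlapping treated levels of 27.4 to 39.9 and 36.7 to 40.2 CPM. Its response difference was 2.00 ± 0.44 (adjusted p = 0.217). Saa3, a serum amyloid, and Serpina3m, a serine protease inhibitor, had response differences of 2.71 and 2.07 (adjusted p = 0.391 and 0.276) and treated differences of 0.05 and 0.19. Without the first untreated WT library the response difference of Saa3 was 1.77. On a square-root CPM scale, which gives low levels less weight, the median response difference was 0.691, with 7 genes higher and 1 lower at an unadjusted p under 0.05.

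Other values are given beside this group. Without the first untreated WT library the median response difference was 1.12 and the untreated one -1.10, with 1 gene called lower; without both libraries that stand apart they were 1.51 and -1.33. Of genes listed for neutrophils, Ly6g, Ngp, Retnlg, Elane, Mpo and Cxcr2 had at most 2 reads in any of the 12 libraries. Others had more: Csf3r had 4 to 42 reads per library, Camp up to 22, Mmp8 up to 44 and Mmp9 357 to 6020. Summed levels of the neutrophil list were 290 to 639 CPM in untreated WT and 110 to 181 CPM in untreated KO islets. That list shares S100a8, S100a9, Ltf and Lcn2 with this group, and Lcn2, given above, makes up most of the untreated sum. Acinar marker sums were lower in KO under both conditions, 10200 to 10300 against 2090 to 3080 CPM untreated. Untreated duct marker sums, 3250 to 4300 CPM in WT against 2110 to 2780 CPM in KO, and endothelial marker sums, 540 to 706 against 307 to 461 CPM, did not overlap either. The medians of the 12 duct and the 12 endothelial genes were -0.771 and -0.722 untreated. Of these genes 5 and 3 were called lower in untreated KO islets (2.48% of all genes). With cytokines the medians were -0.984 and -0.896, with 5 and 7 called lower (3.85% of all genes). The acute phase list had a treated median of 0.032. The part of these cell types in the result was not tested. With the acinar level as a covariate the medians were 1.85 for the response difference and -1.37 for the untreated difference. For the untreated difference this covariate cannot be separated from genotype, since the acinar sums did not overlap.

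**Figure D3:**
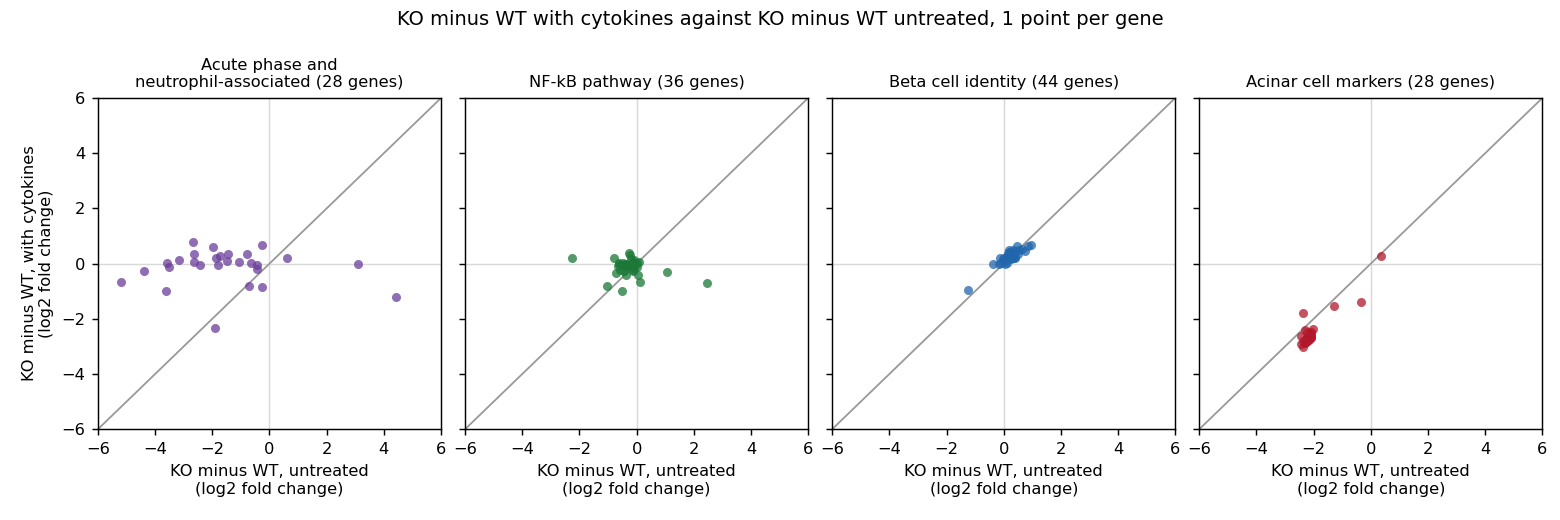
Each point is a gene, with its KO minus WT log2 fold change without cytokines (x axis) and with cytokines (y axis), for 4 gene lists; the diagonal marks no response difference. Acute phase and neutrophil-associated genes lay mostly left of 0 and near 0 on the y axis, while beta cell and acinar genes lay near the diagonal.

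Genes of the NF-kB pathway had the same order of medians with a smaller size. Over 36 genes the response difference had a median of 0.21 and was higher in 10 and lower in 1 at an unadjusted p under 0.05. The untreated median was -0.285, with 6 genes lower in KO (2.48% of all genes) and none higher (0.563%). The treated median was -0.0674, with 1 lower (3.85% of all genes) and 1 higher (1.48%). Cytokines raised 29 of them in WT and 31 in KO (12.6% and 15.4% of all genes). Birc3, an inhibitor of apoptosis and NF-kB target, stood at 38.8, 26.9 and 25.9 CPM in untreated WT and 15.3, 14.2 and 22.8 CPM in untreated KO islets. After treatment it was at 194, 195 and 196 CPM in WT and 233, 222 and 211 CPM in KO. KO was below WT in every untreated library and above WT in every treated one. The response difference of Birc3 was 0.99 ± 0.23 (adjusted p = 0.276), with an untreated difference of -0.80 (adjusted p = 0.0207) and a treated one of 0.19 (adjusted p = 0.495). Nfkbiz, a nuclear co-regulator of NF-kB target genes, ran from 47.5 to 57.7 CPM in untreated WT and from 35.2 to 41.7 CPM in untreated KO islets, while treated levels of 175 to 177 and 171 to 186 CPM overlapped. Stat3, the acute phase transcription factor, was lower by a log2 difference of -0.22 in untreated KO islets (adjusted p = 0.0362) and differed by 0.02 with cytokines (adjusted p = 0.86). Without the third untreated KO library the list's median response difference was 0.394, and without the first untreated WT library 0.17.

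Chemokines, which draw leukocytes to the islet, gave no common direction. Over 23 genes the median response difference was -0.186, with 3 higher and 2 lower at an unadjusted p under 0.05. Its sign rested on 1 library, since it was 0.394 without the third untreated KO library. Cxcl1, a neutrophil attractant, was at 12.9, 5.24 and 6.09 CPM in untreated WT and 1.33, 1.26 and 2.23 CPM in untreated KO islets, lower by a log2 difference of -2.31 (adjusted p = 0.0216). Its treated levels were between 303 and 456 CPM in WT and between 307 and 313 CPM in KO, which overlapped, and its response difference was 2.08 ± 0.60 (adjusted p = 0.407). Ccl22, a chemokine of dendritic cells and macrophages, had the opposite sign, -6.67 ± 2.05 (adjusted p = 0.457). It stood at 33.4 CPM in the third untreated KO library against 0.19 and 0.0406 CPM in the other untreated KO libraries, beside the Cd4 reads and macrophage markers given above, and without that library the response difference was -0.12. Mmp3, a matrix-degrading enzyme of stromal cells, reached 258, 162 and 89.9 CPM in treated WT and 66.8, 19.6 and 49.3 CPM in treated KO islets, without overlap. Its response difference was -3.04 ± 1.05 (adjusted p = 0.518), with 9.11 CPM in the third untreated KO library against 1.18 and 1.06 CPM; without that library it was -1.20. Over 29 cytokine and growth factor genes the median was -0.0128, with 4 higher and 3 lower at an unadjusted p under 0.05. Csf3, the growth factor of neutrophils, was at 0.693, 0.834 and 0.44 CPM in untreated WT and 0, 0.203 and 0.426 CPM in untreated KO. It rose to between 69 and 75 CPM in WT and between 79.5 and 107 CPM in KO. The untreated difference was -1.55 (adjusted p = 0.169), on 0, 5 and 13 KO reads, and the treated one 0.39 (adjusted p = 0.207). The response difference of Csf3 was 1.94 ± 0.60 (adjusted p = 0.462), or 3.09 without the third untreated KO library.

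Nos2, the inducible nitric oxide synthase, was at 2.91, 0.874 and 0.734 CPM in untreated WT and 0.0379, 0.0812 and 0.754 CPM in untreated KO islets. Treated levels of 60.5, 63 and 63.5 CPM in WT and 76.9, 85.3 and 55.2 CPM in KO overlapped. The untreated groups overlapped only through the third KO library, and the response difference was 2.48 ± 0.85 (adjusted p = 0.51). Without that library it was 4.84, and without the first untreated WT library 1.56. The 18 genes of nitric oxide and arginine metabolism had a median of -0.0374, with 2 higher and 2 lower at an unadjusted p under 0.05. Odc1, the first enzyme of polyamine synthesis, was lower in untreated KO islets by -0.45 (adjusted p = 0.0411) and differed by 0.05 with cytokines, for a response difference of 0.50 ± 0.16 (adjusted p = 0.462).

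Interferon targets had a median response difference of 0.227 over 54 genes, of which 43 were above 0. At an unadjusted p under 0.05, 5 were higher and none lower (3.98% and 2.84% of all genes). Cytokines raised 12 in WT and 21 in KO (12.6% and 15.4% of all genes), counts that depend on the threshold. The untreated median was -0.265 with no gene called, and the treated median -0.0744 with 1 called lower. The list's median was 0.0784 without the first untreated WT library and 0.39 without the third untreated KO library. Gbp6, an IFN-γ-induced guanylate-binding protein, went from 0.77 to 1.32 CPM to 6.43 to 7.07 CPM in WT, and from 0.645 to 0.918 CPM to 7.64 to 10.8 CPM in KO. Its untreated genotypes overlapped and its treated ones did not, and the response difference was 1.03 ± 0.32 (adjusted p = 0.462). Irf1, a transcription factor of the IFN-γ response, had a response difference of 0.21 ± 0.13 (adjusted p = 0.858). For Dtx3l, an interferon-induced ubiquitin ligase, the value was 0.34 ± 0.11 (adjusted p = 0.476).

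The 22 genes of MHC class I presentation had a median of 0.115, with 3 higher and none lower at an unadjusted p under 0.05, and this median was 0.0356 without the first untreated WT library. Psmb10, a catalytic subunit of the immunoproteasome, was the list's single call in treated islets. It stood at 27.4, 23.9 and 27 CPM in untreated WT and 28.7, 22.9 and 25.2 CPM in untreated KO islets. After treatment it was at 42.6, 39.9 and 44.5 CPM in WT and 63.2, 57.2 and 48.9 CPM in KO, above WT in every library. The treated difference was 0.41 (adjusted p = 0.0415), the untreated difference -0.03 (adjusted p = 0.929) and the response difference 0.44 ± 0.16 (adjusted p = 0.545). Tapbp, which loads peptides onto MHC class I, rose by 0.68 in WT and 1.04 in KO, a response difference of 0.36 ± 0.14 (adjusted p = 0.611). The 7 MHC class II genes had a median of -0.844, and 0.0513 without the third untreated KO library.

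**Figure D4:**
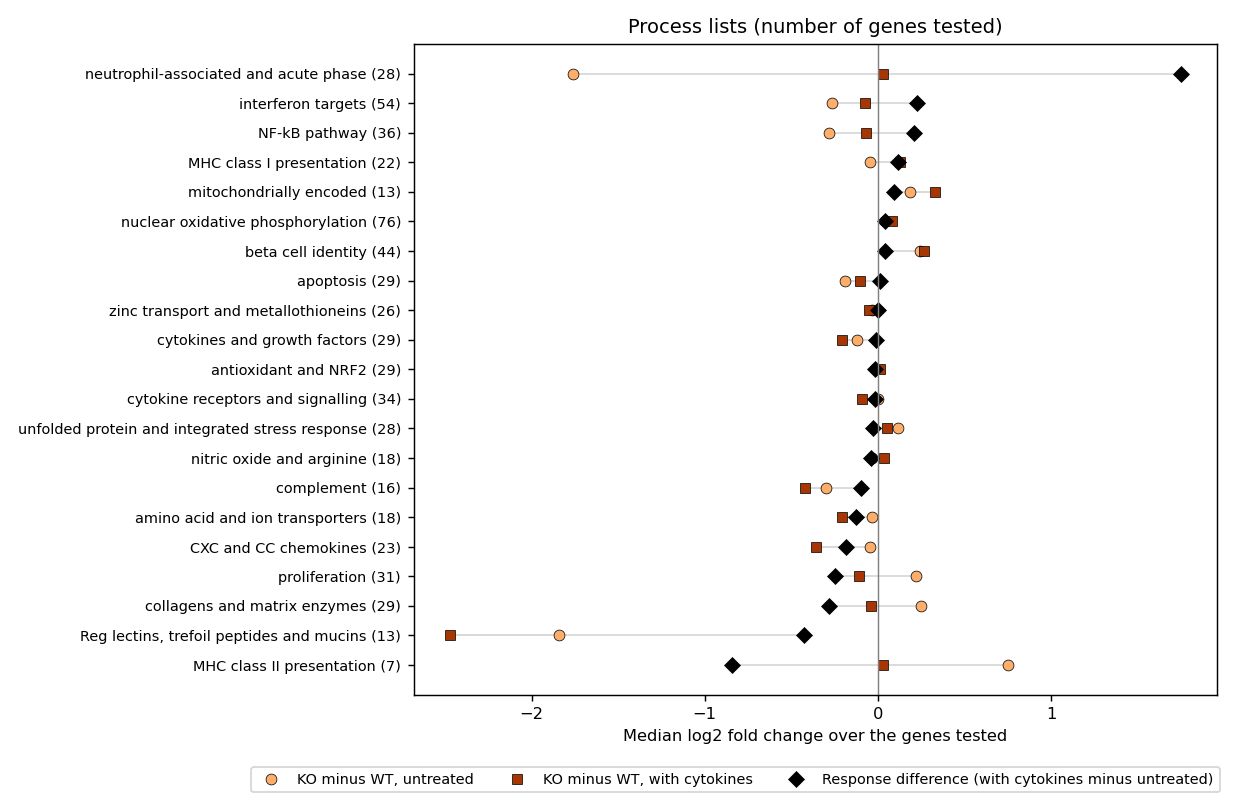
Median log2 fold change of 21 process lists (rows, with the number of genes tested) for KO minus WT untreated (circles), KO minus WT with cytokines (squares) and the response difference (diamonds). The acute phase list had a response difference of 1.75 with a treated difference of 0.032, and most other lists lay between -0.5 and 0.5 for the response difference.

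Beta cell identity genes, taken as a list, differed between genotypes by about the same amount under both conditions. Over 44 genes the KO level had a median of 118% of WT without and 120% with cytokines, and the median response difference was 0.0394, with 2 higher and none lower at an unadjusted p under 0.05. All KO libraries were above all WT libraries in 22 of the 44 genes untreated (11% of all genes) and 28 with cytokines (14.5% of all genes). Cytokines lowered 18 of the 44 in each genotype (13.1% of all genes in WT and 16.1% in KO). Slc2a2, the glucose transporter of beta cells, fell from 93.3, 127 and 119 CPM to 14.8, 16.3 and 15.5 CPM in WT, and from 213, 226 and 174 CPM to 23.5, 25.3 and 23.6 CPM in KO. KO libraries were above WT libraries throughout, the log2 changes were -2.87 and -3.08, and the response difference was -0.22 ± 0.32 (adjusted p = 0.936). Ins2, an insulin gene, had a response difference of -0.04 ± 0.18 (adjusted p = 0.984). Chgb, a granin of the insulin granule, rose by 0.75 in WT and 1.13 in KO, a response difference of 0.39 ± 0.16 (adjusted p = 0.647). Unlike the list's medians, its difference was -0.39 untreated (adjusted p = 0.0709) and -0.001 with cytokines (adjusted p = 0.996). Isl1, an islet transcription factor, had a response difference of 0.34 ± 0.11 (adjusted p = 0.485). Its difference was -0.12 untreated and 0.22 with cytokines (adjusted p = 0.451 and 0.114). These levels move against the acinar marker sums, which were lower in KO. With the acinar level as a covariate the list's untreated median fell from 0.241 to 0.106 and the treated one from 0.264 to 0.129. Because acinar sums did not overlap between genotypes, this covariate cannot be separated from genotype, and the part of acinar cells was not tested.

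Genes of zinc transport and metallothioneins had a median response difference of 0.000616 over 26 genes, with 3 higher and 1 lower at an unadjusted p under 0.05. None passed for the response difference, and the calls lay in the levels. Without cytokines 7 were lower (2.48% of all genes) and 3 higher (0.563%) in KO. With cytokines 5 were lower (3.85% of all genes) and 1 higher (1.48%). Slc30a8 was among the lower ones under both conditions. Mt2, a metallothionein that binds zinc, stood at 418, 349 and 330 CPM in untreated WT and 177, 163 and 160 CPM in untreated KO islets. After treatment it was at 405, 587 and 475 CPM in WT and 315, 360 and 389 CPM in KO. KO was below WT under both conditions, and cytokines raised Mt2 by 0.42 in WT (adjusted p = 0.0456) and 1.09 in KO (adjusted p = 4e-05), a response difference of 0.67 ± 0.21 (adjusted p = 0.457). Mt1 was lower in KO by -1.09 untreated (adjusted p = 0.0029) and -0.70 with cytokines (adjusted p = 0.0239), with a response difference of 0.38 ± 0.23 (adjusted p = 0.838). The zinc importers Slc39a10 and Slc39a13 had response differences of 0.36 ± 0.15 and -0.26 ± 0.08 (adjusted p = 0.673 and 0.407), and both passed only without cytokines, Slc39a10 lower by a log2 difference of -0.45 and Slc39a13 higher by 0.25 in KO.

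Oxidative phosphorylation, named in the series title through mitochondrial respiration, differed little in its response. Over 76 nuclear genes the median response difference was 0.0407, with 55 above 0 (48.5% of all genes). At an unadjusted p under 0.05, 2 were higher (3.98% of all genes). Cytokines raised 15 in WT and 26 in KO (12.6% and 15.4% of all genes), counts that depend on the threshold. The subunits of ATP synthase Atp5f1 and Atp5c1 had response differences of 0.17 ± 0.06 and 0.19 ± 0.08 (adjusted p = 0.562 and 0.675). The 13 mitochondrially encoded genes had a median of 0.091 and none called, and without both libraries that stand apart this was -0.0669.

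Stress and death genes had medians near 0. The 28 genes of the unfolded protein and integrated stress response had a median of -0.0256, with 1 higher and 3 lower at an unadjusted p under 0.05. Edem1, which sends misfolded proteins to degradation, rose in both genotypes and was higher in treated KO than treated WT islets, at 246 to 285 against 219 to 232 CPM (treated difference 0.23, adjusted p = 0.0244). Atf4 and its target Chac1 fell in both genotypes, with response differences of -0.23 ± 0.08 and -0.43 ± 0.17 (adjusted p = 0.549 and 0.647). Antioxidant and NRF2 genes had a median of -0.0154 over 29 genes and apoptosis genes 0.0107 over 29.

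Proliferation genes had a median response difference of -0.247 over 31 genes, of which 1 was above 0. None passed at an unadjusted p under 0.05. Cytokines lowered 5 in WT and 17 in KO (13.1% and 16.1% of all genes), counts that depend on the threshold. Plk1, a mitotic kinase, fell by 2.26 in KO (adjusted p = 0.00413) and differed by -1.07 in WT (adjusted p = 0.151), with a response difference of -1.19 ± 0.74 (adjusted p = 0.849). Collagens and matrix enzymes had a median of -0.281, and 0.158 without the third untreated KO library, in which mesenchymal markers were high. Reg lectins, trefoil peptides and mucins, products of exocrine and duct cells, had medians lower in KO under both conditions. The median was -1.84 untreated, with 9 of 13 called lower (2.48% of all genes). With cytokines it was -2.47, with 10 called lower (3.85% of all genes). Acinar markers had medians of -2.22 and -2.70. Tff2, a trefoil peptide, was lower by a log2 difference of -2.31 and -3.03 (adjusted p = 0.0017 and 0.000236), and its response difference was -0.72 ± 0.45 (adjusted p = 0.849). Amino acid and ion transporters, the list of Slc6a14, had a median of -0.126 over 18 genes, with 4 higher and 2 lower at an unadjusted p under 0.05. Slc7a8, a carrier of large neutral amino acids, fell by 0.27 in WT and fell by 0.62 in KO, a response difference of -0.34 ± 0.09 (adjusted p = 0.359).

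Genes that respond to cytokines were then taken from the Het libraries alone, which take no part in the response difference. In Het islets 2253 genes (12.8%) rose and 2077 (11.8%) fell. Over the rising genes the median response difference of KO against WT was 0.0963 and 71.9% were above 0, against 48.5% of all genes. At an unadjusted p under 0.05, 385 of them were higher and 33 lower (3.98% and 2.84% of all genes). Their median difference was -0.0841 without cytokines, where 1 was higher and 182 lower in KO (0.563% and 2.48% of all genes). With cytokines it was 0.00553, where 52 were higher and 77 lower (1.48% and 3.85% of all genes). For the 566 genes that rose at least 2-fold in Het islets the medians were 0.348 for the response difference, -0.315 untreated and 0.0568 with cytokines. Falling genes had a median response difference of -0.0668, with 36.6% above 0. Their untreated difference was 0.131, where 51 were higher and 11 lower in KO (0.563% and 2.48% of all genes). Their treated one was 0.0761, where 54 were higher and 68 lower (1.48% and 3.85% of all genes). Part of the untreated difference thus stayed with cytokines, where 62.5% of falling genes were above 0, against 51.3% of rising genes. In the 628 genes that fell at least 2-fold the medians were -0.189, 0.287 and 0.112.

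By library, the median of the 566 rising genes relative to each gene's mean was -0.561, -0.835 and -0.805 in untreated WT and -1.1, -1.15 and -0.883 in untreated KO islets. With cytokines it was 0.936, 0.846 and 0.817 in WT and 0.896, 0.868 and 0.893 in KO. Untreated genotypes did not overlap, KO being lower, and treated ones did. For the 628 falling genes the values were 0.444, 0.547 and 0.514 in untreated WT and 0.763, 0.8 and 0.683 in untreated KO islets, without overlap, and -0.576, -0.635 and -0.668 against -0.518, -0.654 and -0.517 with cytokines. In both sets the genotypes were thus farther apart without cytokines than with them. In the rising set the first untreated WT library, the highest of its group, lay farthest from KO, and the third untreated KO library, the highest of its group, lay nearest to WT. Without both, the median response difference of all rising genes was 0.105, and that of all falling genes -0.0455. No p-value is given for these medians, because genes of 1 library share its handling.

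**Figure D5:**
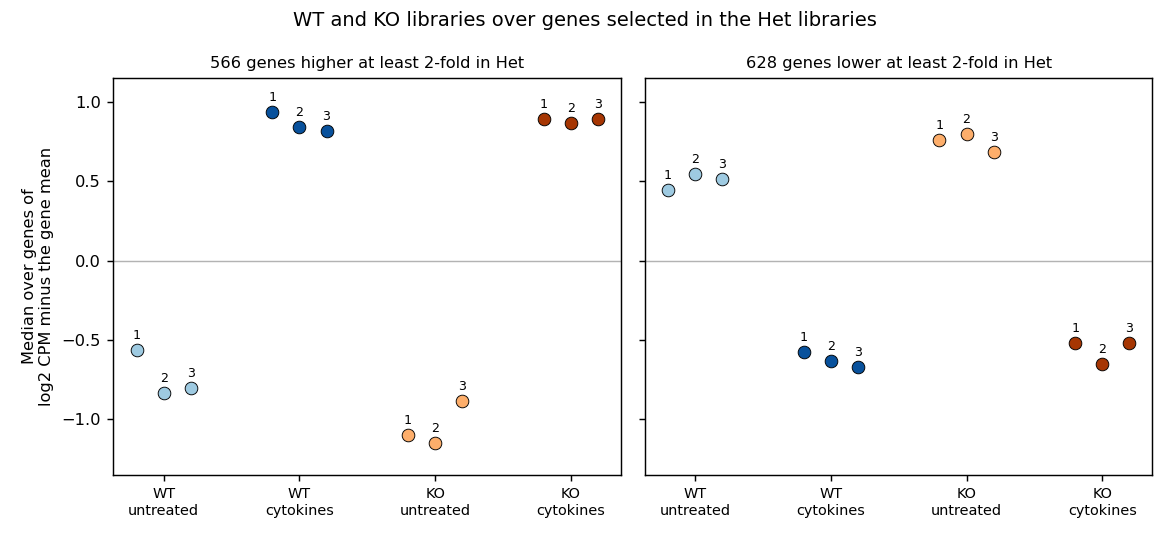
Median over genes of log2 CPM minus the gene's mean over all 18 libraries (y axis) in each WT and KO library, for 566 genes higher and 628 genes lower at least 2-fold with cytokines in Het islets; numbers mark the replicate. Untreated KO libraries lay lower than untreated WT libraries in the left panel and higher in the right panel, and treated libraries of both genotypes overlapped.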

How the data were processed

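Pancreatic islet RNA was sequenced in 18 samples, 3 in each of 6 groups of genotype and treatment. The deposited values are unnormalised counts of reads per gene, whole numbers for 55536 genes. FastQC 0.11.7, cutadapt 1.16, STAR 2.5.2a, featureCounts 1.6.2, DESeq2 1.30.0 and the build GRCm38 are named, without roles, per the submitters' processing notes. Use of strand in counting is not stated in the sources used here, and overlapping and near-identical genes are less certain.

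CPM and log2 fold changes were computed from these counts. The tools were edgeR 4.0.16, with DESeq2 1.42.0 and limma 3.58.1 for alternatives, under R 4.3.3. Genes were kept by filterByExpr with a minimum count of 10 (17590 genes) and libraries scaled by TMM. A single quasi-likelihood model with 6 group means took in the 18 libraries (12 residual degrees of freedom, median biological coefficient of variation 0.103, prior count 0.125), and 6 comparisons were taken from it. Adjusted p-values follow Benjamini and Hochberg, with a threshold of 0.05. The script was tested on simulated data. Figures were drawn with Python 3.11.15 and matplotlib 3.10.9.

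Named genes are up to 15 that passed per direction, the 10 of smallest p per direction without placeholder symbols and at 1 CPM or more in the mean of a group, up to 3 members of each of 21 process and 12 cell type lists by smallest p, and a fixed set of genes; Gm19680, Cd4 and the neutrophil markers were added after their values were seen, and not all are printed; some named genes are not reported here. Lists overlap in part. Members and lists were chosen with earlier results of these data known. Alternatives were other filters, scalings and tools, a fit on 12 libraries, a replicate block and leaving out libraries; the acinar covariate, square-root CPM and leaving out 2 libraries together are given where they bear on a result.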

Additional observations from a re-analysis of the deposited data

Results flagged for a closer look

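The response difference between KO and WT islets passed the test in opposite directions for 2 genes, which is a difference between groups under the same cytokine contrast by its own interaction term. For Slc6a14 the response in KO exceeded that in WT by 5.05 on the log2 scale (edgeR, adjusted p = 0.0231), resting on 3 reads in all untreated KO libraries and 79 in the untreated WT libraries. For the pseudogene Gm19680 the KO response was below the WT response, with a difference of -2.40 (adjusted p = 0.0231), at levels of 9 to 61 reads per library.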

How the results depend on the processing

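Most calls of the response difference depended on the test. The 1 gene called higher became 2 without a filter, 2 with a mean of at least 1 CPM, 2 on square-root CPM, 46 by DESeq2, 12 by limma voom with quality weights and 0 by limma voom, and 0 to 3 on leaving out a library. The 1 gene called lower became 8 by DESeq2, 3 by voom with weights, 0 by voom and in a fit on 12 libraries, and 0 to 1 on leaving out a library. With the acinar level as a covariate, and without both untreated libraries that stand apart (chosen after seeing the data), 0 were called in each direction.

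Replicate numbers are shared across groups, but same-numbered samples correlated at 0.0475 to 0.392 and in 4 of 6 cases above 0.1, so the numbers were not taken to pair the samples. Either form of the replicate block, nested in the genotype or additive, left 0 genes higher and 0 lower in the response difference (Slc6a14 had adjusted p = 0.157 and 0.0857, Gm19680 0.0704 and 0.0857), and the additive block left 54 genes higher in untreated KO islets; 4 of 6 untreated libraries correlated best with their own number.

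Of untreated differences, the 99 higher in KO became 286 in the fit on 12 libraries, 296 by DESeq2, 726 by voom with weights, 0 with the acinar covariate and 0 without both libraries, and 6 to 123 on leaving out 1, with 6 without the first untreated WT library. The 436 lower became 1030 by voom with weights, 0 with the acinar covariate, 16 without both libraries and 115 to 442 on leaving out 1. Of treated differences, the 261 higher became 516 at 1 CPM or more, 757 on 12 libraries, 676 by DESeq2, 1755 by voom with weights, 0 with the acinar covariate and 23 to 912 on leaving out 1. The 678 lower became 2303 by voom with weights, 0 with the acinar covariate and 188 to 808 on leaving out 1. In these the cause was not tested. The counts with the acinar covariate cannot separate acinar level from genotype, since acinar sums did not overlap between WT and KO.

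On leaving out a library, the median response difference of genes rising in Het islets ran from 0.0822 to 0.133 and that of falling genes from -0.0808 to -0.0279; for genes changed at least 2-fold they were 0.348 and -0.189. The acute phase medians ran from 1.12 to 2.07 for the response difference, -1.91 to -1.10 untreated and -0.0316 to 0.0693 treated. Of 70 named genes, 1708 of 1713 values kept their direction; Hamp turned to -1.38 on square-root CPM, and Ins2, near 0, ran from -0.126 to 0.0651. Low counts limit the fold changes of Slc6a14, in untreated KO islets, and of Gm19680, in treated KO islets.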
